A study of Homo sapiens with 12 samples.

Results

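*UBA7*, *C19orf71*, *PGPEP1*, *PAQR6*, *SYTL1* and *ATHL1* are 6 genes, of 57187 in the count table, that were chosen by their read counts. The rule asked that *SIVA-D160N* cells lie below *SIVA-WT* cells, or below both *SIVA-WT* and control cells, in all 4 cancer cell lines sequenced. All 6 genes lay below both in each line. The comparisons of *SIVA-D160N* with the controls and with *SIVA-WT* therefore picked the genes, and both are described here with no test. All 6 genes passed the filter on low counts, which left 17211 genes.

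The RNA sequencing covered 12 libraries of 4 established human cancer cell lines, namely MDA-MB-231 and HCC1954 from breast cancer and OVCAR8 and SKOV3 from ovarian cancer. Each line gave 1 control library (EV), 1 library of cells that over-express wild-type *SIVA* (*SIVA-WT*) and 1 of cells that over-express the D160N mutant (*SIVA-D160N*). The question was which transcripts differ between cells with the mutant, which the study found in a breast cancer, and cells with the wild-type gene or without either. The *SIVA* vectors were linearized with SspI, introduced by lipofection and selected with hygromycin. The study calls the transfectants of HCC1954, OVCAR8 and SKOV3 polyclonal, and the sources used here do not say so of MDA-MB-231. A viral (CMV) promoter drives the transgene, so its level is not the gene's own. Part of the study used MDA-MB-231 cells with luciferase, and the labels do not say whether the sequenced cells carried it. The labels call the control cells parental and untreated, while the study's RNA sequencing notes call them both parental and empty vector, and they are named EV here. If they never went through transfection and selection, these steps cannot be told apart from an effect of either *SIVA* form when a transfectant is compared with EV, whereas *SIVA-D160N* and *SIVA-WT* share them.

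The 6 genes encode proteins of unrelated machinery. *UBA7* encodes the activating enzyme that starts the attachment of the ubiquitin-like protein ISG15 to other proteins, a step of the interferon response, and *SYTL1* encodes a synaptotagmin-like protein that binds RAB27 on secretory vesicles. *PAQR6* encodes a membrane receptor of the progestin and adipoQ receptor family, *PGPEP1* a peptidase that removes pyroglutamate from the start of peptides, *ATHL1* (now *PGGHG*) a glucosidase that acts on the disaccharide of collagen hydroxylysine, and *C19orf71* (now *TEKTIP1*) a protein bound to the tektin bundle inside cilia and flagella.

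Where RefSeq (GRCh38.p14) gave a promoter, for 3 of the 6 genes, the 250 bases before the annotated start are printed, 5′ to 3′ on the gene's strand, because these genes were all lower in *SIVA-D160N* and the stretches let their upstream sequence be compared. Capitals mark matches to any of 7 motifs that were searched on both strands of the 300 bases from 250 before to 50 after the start.
*C19orf71* (chr19:3538924-3539173, plus strand): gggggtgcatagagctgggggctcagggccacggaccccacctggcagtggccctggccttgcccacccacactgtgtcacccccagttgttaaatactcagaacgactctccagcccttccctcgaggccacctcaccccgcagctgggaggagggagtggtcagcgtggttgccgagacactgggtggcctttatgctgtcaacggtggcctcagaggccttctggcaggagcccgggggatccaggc
*PAQR6* (chr1:156248057-156248306, minus strand): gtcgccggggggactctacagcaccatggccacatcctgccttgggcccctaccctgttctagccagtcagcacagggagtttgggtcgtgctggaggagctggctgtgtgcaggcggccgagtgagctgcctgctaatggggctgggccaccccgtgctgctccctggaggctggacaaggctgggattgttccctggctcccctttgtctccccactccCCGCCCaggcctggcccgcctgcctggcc
*SYTL1* (chr1:27341772-27342021, plus strand): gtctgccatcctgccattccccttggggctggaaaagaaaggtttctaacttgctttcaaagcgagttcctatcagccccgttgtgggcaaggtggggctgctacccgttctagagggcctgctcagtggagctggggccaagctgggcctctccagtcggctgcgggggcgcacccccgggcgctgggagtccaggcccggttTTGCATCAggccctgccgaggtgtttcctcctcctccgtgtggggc
The first motif, GAAANNGAA, is part of elements bound by interferon regulatory factors and was present in 8.11% of 35116 promoters of the same length. The AP-1 string TGANTCA was in 7.71% of promoters, the E-box CACGTG in 7.26%, the C/EBP-ATF string TTGCATCA in 0.866%, the GC box GGGCGG in 45.0%, the CCAAT string in 34.6% and the string TATAAA in 11.5%. No motif lies inside another. In *SYTL1*, TTGCATCA began at position -46 from the start and TGAGTCA, a form of the AP-1 string, at position 22 after it. *PAQR6* held the GC box, read as CCGCCC on the gene's strand, at positions -29 and 40. *C19orf71* held none of the 7 strings in this window. A match describes letters only.

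Read counts summed to between 35791455 and 45890398 per library, and the 3 conditions overlapped in this total. *SIVA1* counts were higher in both transfectants than in EV in every line, for example 1272 in EV, 3193 in *SIVA-WT* and 2807 in *SIVA-D160N* of MDA-MB-231. The HCC1954 EV library held 0 counts of *SIVA1*, which allows up to 0.0694 CPM (a count scaled by the library's total), whereas the EV libraries of the other lines held 1272 to 2419 counts, so results are also given without HCC1954. *SIVA1* was lower in *SIVA-D160N* than in *SIVA-WT* in MDA-MB-231 (68.2 against 80.7 CPM), HCC1954 (26.5 against 38.2) and OVCAR8 (161 against 177). It was higher in SKOV3 (112 against 106). The part of this difference in the results was not tested. Line markers matched the labels in part. *PAX8*, a Müllerian marker, stood at 61.1 to 243 CPM in OVCAR8 and SKOV3 and at 1.56 to 3.43 CPM in the breast lines. The luminal breast marker *GATA3* was high only for HCC1954 (42.8 to 49.7 CPM). The breast line MDA-MB-231 had less of it (1.79 to 2.86 CPM) than the ovarian line OVCAR8 (5.68 to 6.28). *CDH1* also stood out only for HCC1954 (695 to 816 CPM). Its highest level was 0.493 CPM for SKOV3, 0.473 for OVCAR8 and 0.0664 for MDA-MB-231. *WT1*, another ovarian lineage marker, did not separate the lines by tissue, with 5.55 to 8.06 CPM for HCC1954, 5.89 to 6.83 for OVCAR8, 0.397 to 1.11 for SKOV3 and at most 0.0505 for MDA-MB-231. Among 7 markers of blood, endothelial and stromal cells, *CD3E*, *CD68* and *PTPRC* stayed at or below 0.627 CPM and *PDGFRB* reached 7.38 CPM. *PECAM1* and *CDH5* reached 62.8 and 25.4 CPM in HCC1954. *COL1A1* ran from 23.8 to 504 CPM between the libraries of SKOV3, a wide range within 1 line. The summed level of these markers ran from 5.64 to 348 CPM in EV, 7.05 to 409 in *SIVA-WT* and 6.02 to 505 in *SIVA-D160N*, and its part in the results was not tested. In bulk RNA, fewer cells with a transcript and less of it per cell cannot be told apart.

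Within each line, *SIVA-D160N* had the lowest level of every one of the 6 genes. A log2 ratio within a line compares single libraries, each with a prior count of 2, and has no replicate check, so the 4 lines are the replicates. All 24 ratios of *SIVA-D160N* to EV and all 24 of *SIVA-D160N* to *SIVA-WT* were below 0, which largely restates the choice of the genes. Over all 17211 genes, 8.34% lay below EV in all 4 lines, 10.7% below *SIVA-WT* in all 4, and 3.81% (656 genes) below both. Among those 656 genes, ordered by the mean of the 8 ratios, *C19orf71* was in place 2, *UBA7* in place 10, *PAQR6* in place 36, *SYTL1* in place 121, *PGPEP1* in place 139 and *ATHL1* in place 300. The smallest of their 48 differences was the log2 ratio of *ATHL1* to EV in MDA-MB-231, at -0.04. Just outside, the non-coding gene *RP11-849F2.9* had a mean of -0.67 over the 8 ratios and missed the rule through a ratio to EV of 0.0017 in SKOV3, and 1285 genes met the rule in 7 of 8 comparisons.

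**Figure D1:**
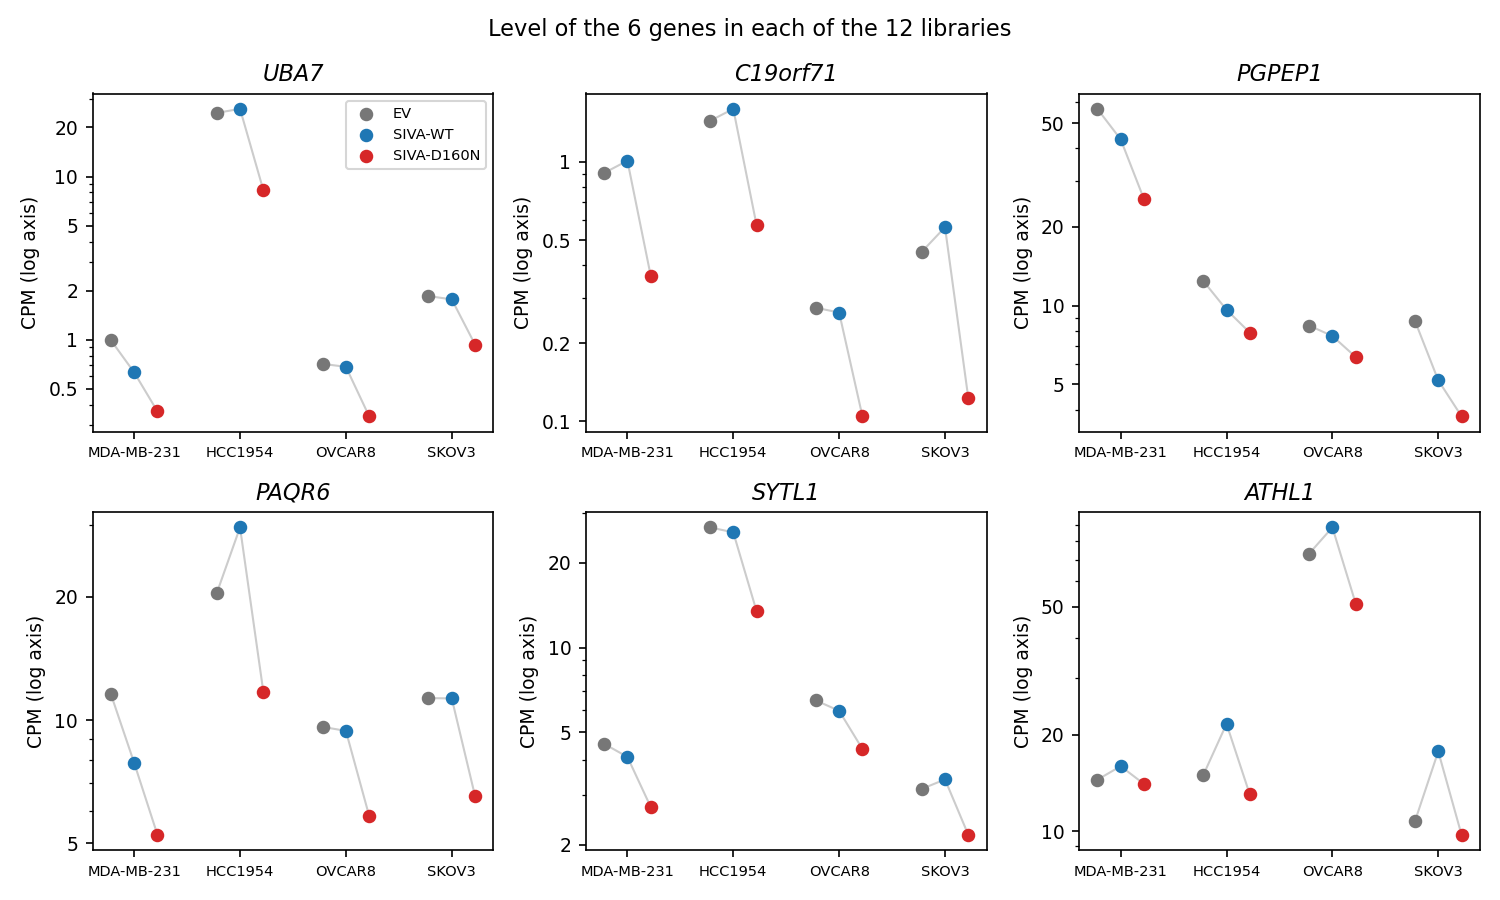
Level of each of the 6 genes in the 12 libraries, in CPM on a log axis, with 1 point for each library and the libraries of a line joined. The *SIVA-D160N* point is the lowest of its line in every panel, and *ATHL1* in MDA-MB-231 shows the smallest step, from 14.5 CPM in EV to 14.04.

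*UBA7* (ENSG00000182179, chr3:49805209-49813953), the ISG15-activating enzyme, had EV levels of 0.995 CPM (MDA-MB-231), 24.6 CPM (HCC1954), 0.713 CPM (OVCAR8) and 1.85 CPM (SKOV3). In *SIVA-WT* the levels were 0.632, 26.01, 0.683 and 1.77 CPM in the same order of lines. In *SIVA-D160N* they were 0.364, 8.28, 0.340 and 0.936 CPM. HCC1954 thus held most of the transcript, with 1024, 1120 and 290 counts in EV, *SIVA-WT* and *SIVA-D160N*, whereas the other lines had at most 79 counts in any library. In OVCAR8 the 13 counts of *SIVA-D160N* (exact Poisson 95% interval, 6.9 to 22.2) and the 26 counts of EV (17.0 to 38.1) have overlapping counting intervals. The mean log2 ratio over the lines was -1.20 ± 0.30 (SD, n = 4) against EV and -1.04 ± 0.41 against *SIVA-WT*, and it was -1.08 and -0.84 without HCC1954.

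*SYTL1* (ENSG00000142765, chr1:27342022-27353932, plus strand), the RAB27-binding gene, stood in EV at 4.56 CPM for MDA-MB-231, 26.7 for HCC1954, 6.50 for OVCAR8 and 3.15 for SKOV3. The *SIVA-WT* libraries gave 4.09, 25.6, 5.97 and 3.41 CPM. The *SIVA-D160N* libraries gave 2.72, 13.5, 4.37 and 2.17 CPM. EV and *SIVA-WT* were at most 0.15 apart on the log2 scale in every line, and *SIVA-D160N* lay below both. Its mean log2 ratio was -0.70 ± 0.21 (SD, n = 4) against EV and -0.65 ± 0.20 against *SIVA-WT*, or -0.61 and -0.56 without HCC1954, the line with the widest step.

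*PAQR6* (ENSG00000160781, chr1:156243320-156248056, minus strand), the membrane receptor gene, was at 11.6 and 20.4 CPM in the EV libraries of the breast lines MDA-MB-231 and HCC1954 and at 9.62 and 11.3 CPM in those of the ovarian lines OVCAR8 and SKOV3. For *SIVA-WT* the values were 7.86, 29.5, 9.41 and 11.3 CPM, and for *SIVA-D160N* 5.25, 11.7, 5.83 and 6.53 CPM. *SIVA-WT* was below EV in MDA-MB-231, above it in HCC1954 and close to it in the ovarian lines, while *SIVA-D160N* stayed the lowest throughout. The mean log2 ratios were -0.86 ± 0.19 (SD, n = 4) against EV and -0.84 ± 0.33 against *SIVA-WT*, and -0.88 and -0.68 without HCC1954.

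*PGPEP1* (ENSG00000130517, chr19:18340598-18369950), the pyroglutamyl peptidase gene, was highest in EV of each line, at 56.7 CPM for MDA-MB-231, 12.4 for HCC1954, 8.39 for OVCAR8 and 8.74 for SKOV3. *SIVA-WT* was intermediate in each line, at 43.3, 9.64, 7.65 and 5.18 CPM. *SIVA-D160N* was lowest, at 25.6, 7.88, 6.36 and 3.77 CPM. The order EV, *SIVA-WT*, *SIVA-D160N* therefore held in 4 of 4 lines, and the mean log2 ratio of *SIVA-D160N* was -0.85 ± 0.39 (SD, n = 4) to EV and -0.44 ± 0.23 to *SIVA-WT*. Without HCC1954 these were -0.91 and -0.49.

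*ATHL1* (ENSG00000142102, now *PGGHG*, chr11:289126-296107), the glucosidase gene, had the opposite place for *SIVA-WT*, which was the highest library of each line. EV stood at 14.5 CPM for MDA-MB-231, 14.95 for HCC1954, 73.2 for OVCAR8 and 10.8 for SKOV3. *SIVA-WT* stood at 16.0, 21.6, 88.4 and 17.7 CPM, and *SIVA-D160N* at 14.04, 13.0, 51.2 and 9.75 CPM. Against EV the difference was small outside OVCAR8, with log2 ratios of -0.04 in MDA-MB-231, -0.20 in HCC1954 and -0.14 in SKOV3 and of -0.52 in OVCAR8. The mean was -0.22 ± 0.20 (SD, n = 4) against EV and -0.64 ± 0.31 against *SIVA-WT*, and -0.23 and -0.61 without HCC1954. In SKOV3 the 396 counts of *SIVA-D160N* (95% interval, 358 to 437) and the 406 of EV (367.5 to 447.5) have overlapping counting intervals, and so do the counts in MDA-MB-231.

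*C19orf71* (ENSG00000183397, now *TEKTIP1*, chr19:3539174-3544030, plus strand), the tektin-bundle gene, had the fewest counts of the 6 genes. The EV libraries held 41 counts for MDA-MB-231, 60 for HCC1954, 10 for OVCAR8 and 17 for SKOV3, which are 0.907, 1.44, 0.274 and 0.450 CPM. *SIVA-WT* held 40, 69, 10 and 25 counts (1.01, 1.60, 0.263 and 0.560 CPM), and *SIVA-D160N* 15, 20, 4 and 5 counts (0.364, 0.571, 0.105 and 0.123 CPM). *SIVA-D160N* was low in each line while EV and *SIVA-WT* lay close together. In SKOV3 the interval of the 5 counts of *SIVA-D160N* (1.6 to 11.7) lies below that of the 25 counts of *SIVA-WT* (16.2 to 36.9), but overlaps that of the 17 counts of EV (9.9 to 27.2). In OVCAR8 the interval of its 4 counts (1.1 to 10.2) overlaps that of the 10 counts of EV (4.8 to 18.4). These intervals cover counting error only. The mean log2 ratio was -1.27 ± 0.19 (SD, n = 4) to EV and -1.40 ± 0.33 to *SIVA-WT*, or -1.27 and -1.40 without HCC1954, and a prior count of 5 moved the ratio to EV to -1.06. *C19orf71* lies within the span of *MFSD12*, a membrane transporter gene on the minus strand with up to 4054 counts. The libraries keep strand, but the sources used here do not state which strand's counts were taken, so reads of the overlap cannot be assigned with certainty. *MFSD12* itself had a log2 fold change of -0.08 in *SIVA-D160N* vs EV and was lower in 2 of 4 lines.

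**Figure D2:**
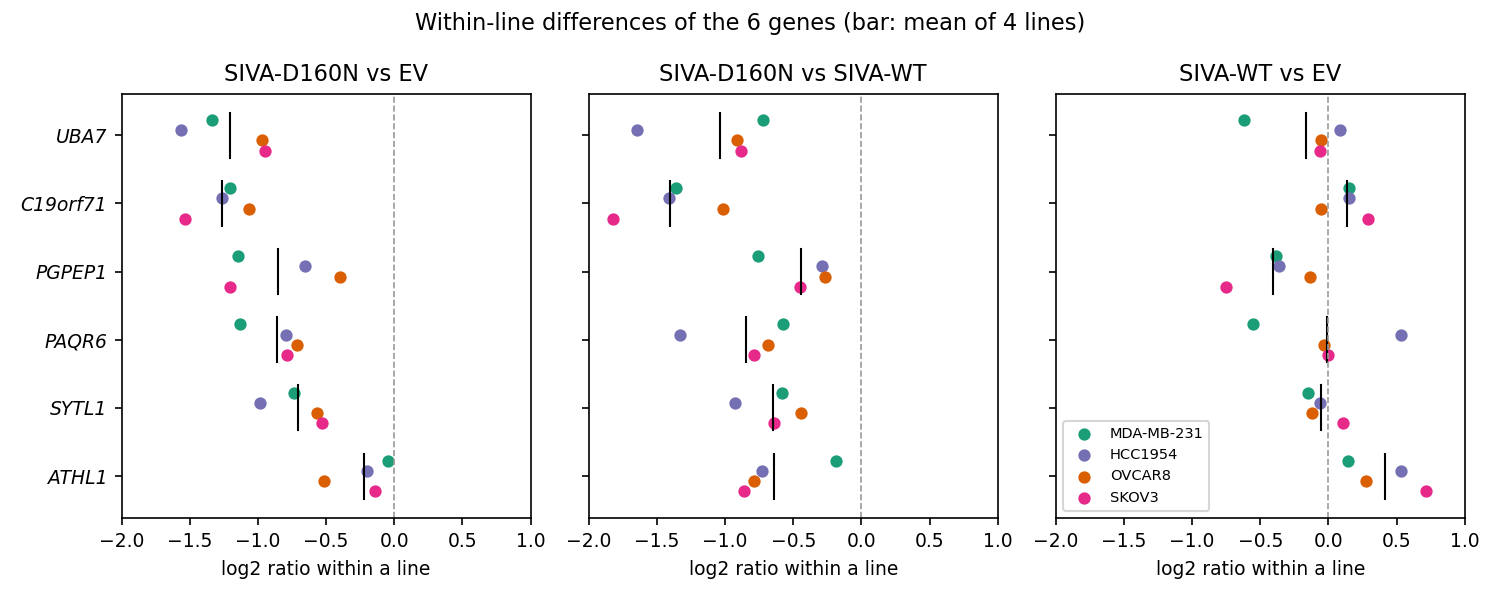
Log2 ratio within each line of *SIVA-D160N* to EV, *SIVA-D160N* to *SIVA-WT* and *SIVA-WT* to EV for the 6 genes, with 1 point for each line and a bar at the mean of 4 lines. The points of the first pair of panels are all below 0, as the choice of the genes largely requires. *SIVA-WT* to EV lies on both sides of 0 for 4 genes, below 0 in all lines for *PGPEP1* and above 0 in all lines for *ATHL1*.

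The choice of the genes did not set *SIVA-WT* against EV, so this comparison was tested, although it shares libraries with the comparisons above. The choice did use the levels in *SIVA-WT* and EV, and favours genes that are high in either. The p-values of the 6 genes here are therefore not free of that choice. None of the 6 genes was called at an FDR (Benjamini-Hochberg adjusted p-value) under 0.05 with a log2 fold change of 1.5 or more in size. The same holds for all 17211 genes (0% called) by edgeR's quasi-likelihood test with a term for the cell line, where 437 genes had an unadjusted p under 0.05, limma-voom called 1 gene and DESeq2 called 1. *PGPEP1* was lower in *SIVA-WT* in 4 of 4 lines, with a log2 fold change of -0.42 (SE 0.14; unadjusted p = 0.0145, FDR = 1.00 by edgeR). *ATHL1* was higher in 4 of 4 lines, with a log2 fold change of 0.42 (SE 0.12; unadjusted p = 0.00634, FDR = 1.00 by edgeR). *SIVA-WT* to EV was -0.13 (SE 0.18) for *UBA7*, 0.16 (SE 0.22) for *C19orf71*, -0.0019 (SE 0.16) for *PAQR6* and -0.06 (SE 0.13) for *SYTL1*, each with an FDR of 1.00 by edgeR. With standard errors of 0.12 to 0.22, the test does not show that *SIVA-WT* and EV are alike. The log2 fold change of *SIVA-WT* vs EV in the ovarian lines minus that in the breast lines ranged from -0.08 for *PGPEP1* to 0.14 for *ATHL1*, with an FDR of 1.00 by edgeR for all 6. In that interaction test 0% of genes were called, with 306 genes at an unadjusted p under 0.05 and 0 called by limma-voom and by DESeq2.

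Levels also differed between lines. All 6 genes differed between lines by edgeR's quasi-likelihood test, with FDR values of 2.34e-09 (*UBA7*) to 7.32e-05 (*PAQR6*), and so did 93.9% of all genes tested, so a line difference is the rule. The 3 libraries of a line differ in condition and are not repeats. *UBA7* averaged 19.6 ± 9.85 CPM (SD, n = 3) in HCC1954 and 0.579 ± 0.207 CPM in OVCAR8, a 33.9-fold range, with SKOV3 (1.52 ± 0.508 CPM) and MDA-MB-231 (0.664 ± 0.317 CPM) between them. *SYTL1* averaged 21.9 ± 7.35 CPM in HCC1954, followed by OVCAR8 (5.61 ± 1.11), MDA-MB-231 (3.79 ± 0.954) and SKOV3 (2.91 ± 0.655). For *PAQR6*, HCC1954 at 20.6 ± 8.90 CPM was ahead of SKOV3 (9.71 ± 2.76), OVCAR8 (8.29 ± 2.13) and MDA-MB-231 (8.23 ± 3.18). HCC1954 was thus the highest line for these 3 genes, and its lowest library was above the highest library of the next line. The share of all genes with such a gap between lines was not determined, so a gap is not read as particular to these genes. *PGPEP1* was highest in MDA-MB-231 (41.9 ± 15.6 CPM), then HCC1954 (9.98 ± 2.30), OVCAR8 (7.46 ± 1.03) and SKOV3 (5.90 ± 2.56). *ATHL1* was highest in OVCAR8 (70.9 ± 18.7 CPM), then HCC1954 (16.5 ± 4.50), MDA-MB-231 (14.8 ± 1.00) and SKOV3 (12.7 ± 4.35). In both genes the top line stood apart from the next and the other neighbours overlapped, as they did for the preceding genes. *C19orf71* ran from 1.20 ± 0.555 CPM in HCC1954 through 0.761 ± 0.347 in MDA-MB-231 and 0.378 ± 0.227 in SKOV3 to 0.214 ± 0.0948 in OVCAR8. All neighbours in this order overlapped, but such overlaps set libraries of different conditions against each other. Within each condition *C19orf71* kept this order of lines, with 1.44, 0.907, 0.450 and 0.274 CPM in EV. *SIVA-WT* had 1.60, 1.01, 0.560 and 0.263 CPM, and *SIVA-D160N* had 0.571, 0.364, 0.123 and 0.105 CPM.

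Pathway partners of the 6 genes did not share one direction. No gene of 8 lists of partners and relatives was called by edgeR at both thresholds in *SIVA-D160N* vs EV. In that comparison 0.00581% of all genes (1 gene) were called by edgeR. Calls of list genes by limma-voom and DESeq2 at both thresholds are not given for it, only those at an FDR under 0.05 alone. In *SIVA-D160N* vs *SIVA-WT* no list gene was called by edgeR, limma-voom or DESeq2 with the filter on low counts. There edgeR called 0% of all genes, and 1184 genes had an unadjusted p under 0.05. With no filter, edgeR reached an FDR under 0.05 alone for 2 of 37 interferon-response genes in that comparison, and the share over all genes is not given. Among 36 tested interferon-response genes, the response to which *UBA7* belongs, 32 had a log2 fold change below 0 in *SIVA-D160N* vs EV, with a median of -0.38 against -0.01 over all genes, and 12 were lower and 0 higher at an unadjusted p under 0.05. Over all 17211 genes, 1322 (7.68%) were lower and 1123 (6.52%) higher at that p. At an FDR under 0.05 alone edgeR called 0 of these 36 (1 gene of all, 0.00581%), limma-voom 6 (67 of all, 0.389%) and DESeq2 4 (340 of all, 1.98%). With no filter on low counts edgeR called 11 of 37 interferon-response genes in this way and 552 of all 34909 genes (1.58%). The median by line was -0.92 in HCC1954, -0.47 in SKOV3, -0.14 in MDA-MB-231 and -0.02 in OVCAR8, and the median of the fit was -0.15 without HCC1954 and -0.61 without OVCAR8. Against *SIVA-WT* the median was -0.24, with 32 of 36 below 0, and 7 were lower and 0 higher at an unadjusted p under 0.05, beside 740 (4.3%) lower and 444 (2.58%) higher of all genes. *XAF1*, an interferon-induced apoptosis gene, had the largest value of the list in *SIVA-D160N* vs EV, -2.43 (SE 0.44; FDR = 0.133 by edgeR), and was lower in 3 of 4 lines. Its level was 18.9, 11.7 and 2.37 CPM in EV, *SIVA-WT* and *SIVA-D160N* of HCC1954. Elsewhere it was at most 0.609 CPM, with 0 in OVCAR8.

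The ISG15 conjugation genes, the direct partners of the *UBA7* product, all had values below 0 in *SIVA-D160N* vs EV (7 of 7, median -0.17), but the median turned to 0.08 without HCC1954. *ISG15* itself, the modifier, was at 12.3, 13.7 and 15.2 CPM in EV, *SIVA-WT* and *SIVA-D160N* of MDA-MB-231, at 12.4, 14.2 and 15.6 CPM in OVCAR8 and at 9.80, 12.3 and 12.8 CPM in SKOV3. In HCC1954 *ISG15* was at 46.8, 14.4 and 11.5 CPM, so that line alone had *SIVA-D160N* below EV. *UBE2L6*, the conjugating enzyme that takes ISG15 from UBA7, had a log2 fold change of -0.46 (SE 0.16; unadjusted p = 0.0134, FDR = 0.246 by edgeR) and was lower in 3 of 4 lines. The ligase *HERC5* had -0.07 and the deconjugating protease *USP18* -0.19, with FDR values by edgeR of 0.879 and 0.839. The ISG15 list had within-line medians of 0.12 in MDA-MB-231 and 0.15 in OVCAR8. *UBA7* was below EV in all 4 lines, as the choice of the genes largely requires. In these lines it had few counts, 15 in *SIVA-D160N* against 45 in EV of MDA-MB-231 and 13 against 26 in OVCAR8. Whether *UBA7* moves apart from this list was not tested.

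Relatives of the other genes gave medians near 0 in *SIVA-D160N* vs EV. The other E1 enzymes had 8 of 9 values above 0 and a median of 0.06 (0.0095 without SKOV3), with *UBA6*, which activates ubiquitin, at 0.29 (FDR = 0.276 by edgeR). Among 11 RAB27 secretion genes the median was 0.05 and 6 were above 0, with *RAB27A*, which binds the *SYTL1* product, at 0.05, *RAB27B* at 0.20 and *SYTL5*, a paralog of *SYTL1*, at -0.91 (FDR = 0.307 by edgeR). The RAB27 median lay at or below -0.0042 without HCC1954, OVCAR8 or SKOV3 (-0.0049, -0.0042 and -0.05) and was -0.0094 with no filter on low counts. The 10 PAQR and progesterone membrane genes split into 5 above and 5 below 0 (median 0.02, and -0.05 without MDA-MB-231), with *PAQR4* at 0.18, *ADIPOR1* at -0.0041 and *PAQR8* at -0.43 (FDR = 0.460 by edgeR). Of 19 peptidase genes 13 were above 0 (median 0.09), with *TRHDE*, which cleaves pyroglutamate from thyrotropin-releasing hormone, at 0.61 (FDR = 0.550 by edgeR). *ANPEP*, an aminopeptidase gene named after its values were seen, had -0.59 (SE 0.13; unadjusted p = 0.000676, FDR = 0.142 by edgeR) and was lower in 4 of 4 lines. Collagen hydroxylysine genes had 9 of 16 below 0 (median -0.04, and 0.06 without OVCAR8 or -0.12 without SKOV3), with *PLOD3* at 0.19, *COLGALT1* at 0.04 and *COLGALT2* at -0.50 (FDR = 0.527 by edgeR). Of 7 tested tektin partners 5 were below 0 (median -0.02), with *SPAG8* at -0.79 (FDR = 0.402 by edgeR), and the median was -0.26 without MDA-MB-231 and also with no filter on low counts, and -0.09 to -0.18 without another line. At an unadjusted p under 0.05 these 6 lists held 1 higher and 0 lower (E1), 2 and 1 (RAB27), 1 and 0 (PAQR), 1 and 1 (peptidases), 1 and 1 (collagen) and 0 and 0 (tektins), against the shares of 6.52% higher and 7.68% lower over all genes. At an FDR under 0.05 alone edgeR and limma-voom called 0 genes of these 6 lists, DESeq2 called 1 peptidase and 1 collagen gene, and edgeR with no filter on low counts called 1 peptidase gene.

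**Figure D3:**
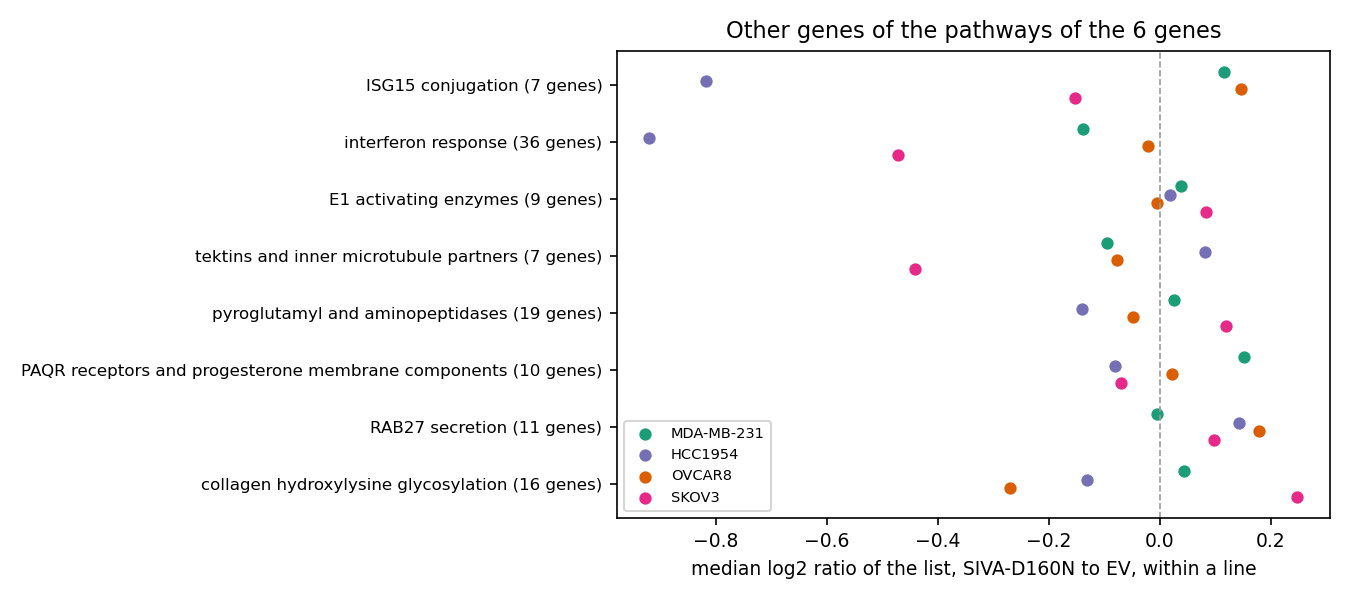
Median log2 ratio of *SIVA-D160N* to EV within each line for 8 lists of pathway genes, with 1 point for each line and the number of tested genes in parentheses. Interferon-response and ISG15 conjugation genes lie lowest in HCC1954 (-0.92 and -0.82), and the other lists lie on both sides of 0.

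Genes next to the 6 on the chromosome mostly had small log2 fold changes in *SIVA-D160N* vs EV. Beside *UBA7*, *FAM212A* (179 bases away) had -0.13 and *TRAIP*, a ubiquitin ligase gene, 0.11. Beside *SYTL1*, *TMEM222* had -0.16 and *MAP3K6*, a kinase gene 1252 bases away, 0.09, and beside *PAQR6*, *SMG5*, a nonsense-mediated decay gene 1168 bases away, had 0.01. Beside *C19orf71*, *FZR1*, a cell cycle gene 840 bases away, had 0.06. All these had FDR values of 0.493 or more by edgeR. The exceptions in size were *GDF15*, a stress-induced cytokine gene 16208 bases from *PGPEP1*, and *IFITM1*, an interferon-induced antiviral gene 17933 bases from *ATHL1*. *GDF15* had a log2 fold change of -1.91 (unadjusted p = 0.0155, FDR = 0.256 by edgeR) and was lower in 3 of 4 lines, while *LSM4* on the other side of *PGPEP1* had 0.0015. *IFITM1* had -1.44 (SE 0.23; unadjusted p = 6.56e-05, FDR = 0.128 by edgeR) and was lower in 4 of 4 lines, while *PSMD13* on the other side of *ATHL1* had 0.04 and *IFITM2*, between them, -0.22. *IFITM1* was at 67.4, 38.8 and 19.5 CPM in EV, *SIVA-WT* and *SIVA-D160N* of HCC1954 and below 1 CPM elsewhere, and its near-identical relatives make its reads less certain.

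The genes whose level moved most like each of the 6 were found by Pearson's r of log2 CPM over the 12 libraries after centring each gene within its line. This is a description, since the libraries share lines and conditions and the best of 17211 genes is high by selection. The 6 genes were also chosen for low *SIVA-D160N* levels in every line, so likeness among them is partly set by that choice. *UBA7* was most like *SYTL1* (r = 0.982), the diacylglycerol kinase gene *DGKA* (0.980) and the membrane protein gene *LMBR1L* (0.975). *SYTL1* was in turn most like *UBA7*, *PRSS16* (0.968) and *RP11-395L14.18* (0.968). *LMBR1L* also came first for *PAQR6* (0.989), followed by *LINC00648* (0.977) and *TTC21A* (0.975). *C19orf71* was most like the receptor kinase gene *LTK* (0.953), *SYTL1* (0.947) and *RP5-827C21.4* (0.942). *PGPEP1* was most like *TIGD4* (0.983), the vesicle fusion gene *STX16* (0.974) and *AC073283.4* (0.968), and *ATHL1* like *FAM71E1* (0.938), *KIF26A* (0.934) and *AC129492.6* (0.927). *UBA7*, *SYTL1*, *C19orf71* and *PAQR6* thus had one of their number or a shared gene among their 3 nearest, and *PGPEP1* and *ATHL1* did not.

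The rule did not use base composition, which the 6 genes share. The median transcript GC content per gene was 66.6% for *C19orf71*, 65.7% for *SYTL1*, 63.5% for *ATHL1*, 61.7% for *PAQR6*, 58.2% for *UBA7* and 56.9% for *PGPEP1*, against a median of 49.3% over 17019 genes, and at least 75.7% of genes had a lower value than each. Most of the 6 are also short, with gene spans from 4737 bp (*PAQR6*) to 11911 bp (*SYTL1*) and 29353 bp for *PGPEP1*, against a median of 27647 bp over 15734 genes. The share of all genes below 0 in all 4 lines was larger at higher GC content, from 4.17% in quintile 1 (lowest GC content) to 14.6% in quintile 5 (highest) for *SIVA-D160N* vs EV and from 5.20% to 17.9% for *SIVA-D160N* vs *SIVA-WT*. For *SIVA-WT* vs EV it was 3.64% in quintile 1 and 5.49% in quintile 5. Within lines the GC trend of *SIVA-D160N* vs EV was uneven, with a median log2 ratio in quintile 5 of -0.22 in OVCAR8, -0.16 in HCC1954, -0.0012 in MDA-MB-231 and 0.05 in SKOV3. Measured against the median of the genes in the same quintile, all 24 ratios of the 6 genes to EV and all 24 to *SIVA-WT* stayed below 0. Those of *ATHL1* to EV were -0.04 in MDA-MB-231 and in HCC1954. The choice of the genes largely fixes this outcome, so it is no test of base composition.

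**Figure D4:**
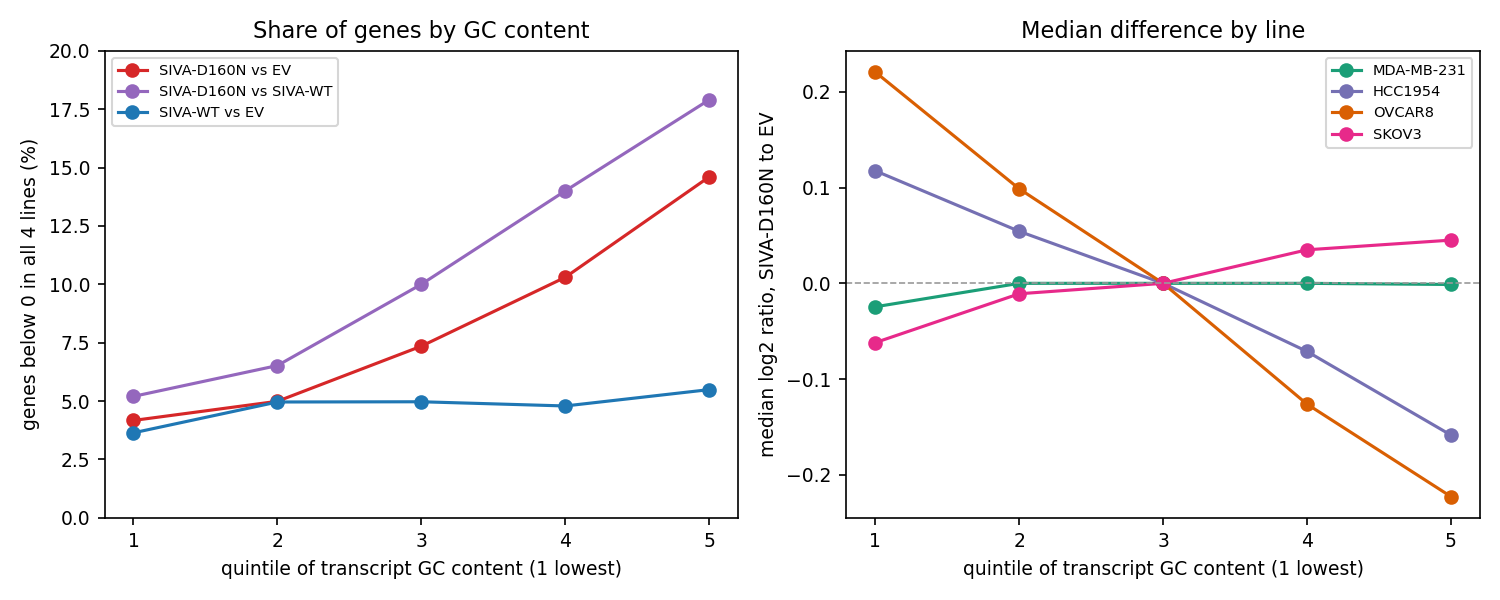
Left, share of genes (%) whose log2 ratio was below 0 in all 4 lines, by quintile of transcript GC content, for the 3 comparisons. Right, median log2 ratio of *SIVA-D160N* to EV in each quintile by line. The share reaches 14.6% and 17.9% in the quintile with the highest GC content for the *SIVA-D160N* comparisons and 5.49% for *SIVA-WT* vs EV, while the medians are lower at higher GC content in OVCAR8 and HCC1954 and not in MDA-MB-231 or SKOV3.

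Other features of the libraries moved with *SIVA-D160N* as well. The 10 most abundant genes took a smaller share of its counts than in EV and in *SIVA-WT* in 4 of 4 lines, with ratios of 0.830 to 0.925 and 0.893 to 0.992. The nuclear RNA *NEAT1* was lower than in *SIVA-WT* in 4 of 4 lines (0.619 to 0.776 times) and lower than in EV in 3 of 4, and *MALAT1* was lower in 4 of 4 (0.826 to 0.893 times) and 2 of 4 lines. The mitochondrial share was lower than in *SIVA-WT* in 4 of 4 lines and than in EV in 3 of 4. The part of base composition and of these features in the lower levels of the 6 genes was not tested.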

How the data were processed

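RNA of the 12 cell line cultures was prepared with a stranded mRNA kit. Per the labels and the study's notes, the authors aligned the reads to GRCh38 and deposited gene counts without normalization for 57187 genes. The submitters' processing notes name FastQC, STAR 2.5.3a and edgeR. The annotation release and the strand setting are not given in the sources used here. CPM values here were computed from the counts with TMM.

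The model was made with edgeR 4.0.16 under R 4.3.3 (quasi-likelihood, TMM, filterByExpr by condition, terms for cell line and condition, 12 libraries) and genes were called by FDR (under 0.05) together with the size of the log2 fold change (1.5 or more). The p-values of the condition comparisons set a difference against its variation over the 4 lines, after the line term takes out each line's level. Those of the line test set differences between lines against the same leftover variation. The line is the replicate block, since each trio of libraries comes from 1 cell line. Libraries of one line deviated together (r from 0.929 to 0.968) and those of different lines did not (-0.447 to -0.191). Alternatives were limma 3.58.1 (voom), DESeq2 1.42.0, other normalizations, filters, prior counts and lines left out. The GC comparison and list medians under alternatives were added after the data were seen. The fit was tested on simulated data.

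The 6 genes and the lists were chosen with earlier results of these data known. Genes named are the 6, *SIVA1*, the 3 genes most like each, their nearest and overlapping neighbours, and direct partners or the largest value in each list. Comparisons with *SIVA-D160N* chose the 6 genes, so no test of them is given. Markers that no result touches are not named, and 1 listed marker gene was left out and is not reported here. Gene positions and promoters are from RefSeq (GRCh38.p14), and GC content from GENCODE transcripts matched by gene identifier. Figures used matplotlib 3.10.9 in Python 3.11.15.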

Additional observations from a re-analysis of the deposited data

How the results depend on the processing

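The 24 of 24 counts of lower *SIVA-D160N* levels, against EV and against *SIVA-WT*, stayed at 24 under RLE or total-count scaling, prior counts of 0.5 and 5 and the comparison within quintiles of GC content, and at 18 of 18 with any line left out, which the choice of the genes largely fixes. Counts of called genes moved. *SIVA-D160N* vs EV gave 1 gene by edgeR, 172 with no filter on low counts, 27 with limma-voom, 12 with DESeq2, 0 with no replicate block and 0 to 2 with a line left out (0 without MDA-MB-231 or SKOV3, 2 without HCC1954 or OVCAR8). *SIVA-D160N* vs *SIVA-WT* gave 0, and 59, 1 and 3 with no filter, limma-voom and DESeq2. *SIVA-WT* vs EV gave 0, and 10, 1 and 1. The interaction gave 0, 16 with no filter, and 0 to 1 with a line left out (1 without MDA-MB-231). The cause was not tested. In *SIVA-WT* vs EV the sign of *PAQR6* (-0.0019) turned to 0.029 with total counts, 0.0020 with no filter, 0.056 with limma-voom, 0.0002 with DESeq2, 0.13 with no replicate block, 0.18 without MDA-MB-231 and 0.02 without OVCAR8, and that of *UBA7* (-0.13) to 0.049 with no replicate block and 0.0014 without MDA-MB-231. With a line left out these ran from -0.20 to 0.18 for *PAQR6* and from -0.25 to 0.0014 for *UBA7*. The block changed no other call. Without a replicate within a line, a step such as that of *ATHL1* to EV in MDA-MB-231 cannot be set against culture variation, and *C19orf71* is limited by 4 to 69 counts per library.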
